A study of Mus musculus with 9 samples.

Results

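The ID genes Id1, Id2 and Id3 and the SMAD pathway genes Smad3, Smad6, Smad7, Bambi, Skil and Tgfb1 were followed through 24 hours of neuregulin-1 (NRG1) treatment in MyC-CaP cells. The 9 genes were taken as readouts of bone morphogenetic protein (BMP) and transforming growth factor β (TGF-β) signaling and were matched by symbol. Of these, 8 were among the 15552 genes of the count table, and Bambi was not analysed here. Of the 8, 7 passed the filter on low counts that left 11373 genes for testing, and Id3 did not. Id1 was the only one of the 7 tested genes to rise by at least 1.5-fold with an adjusted p of at most 0.05, and it did so at 24 hours. Smad7 rose by less at both times, and Id2 rose slightly at 24 hours. These rises were less firm: each library was left out in turn, in 9 fits. At 24 hours the edgeR adjusted p stayed at most 0.05 in 6 fits for Smad7 and 4 for Id2. The values of Smad3 and Smad6 at 12 and 24 hours lay close to those at 0 hours.

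MyC-CaP is an androgen-responsive line from a prostate tumor of a mouse carrying a MYC transgene under a prostate-directed promoter, and all libraries came from this single line. NRG1 is a ligand of the receptor HER3, which pairs with HER2. Cells were held without serum and calcium for 6 to 12 hours and then given recombinant NRG1 at 15 ng/mL, and RNA was taken at 0, 12 and 24 hours from 3 biological replicates each, plated as wells. The 0 hour libraries are the starved cells and carry the same treatment label as the others. The question this comparison addresses is how gene expression changes with time after the ligand is added. Untreated 12 and 24 hour libraries were not analysed here, so time with NRG1 and time without serum cannot be told apart, and both comparisons against 0 hours share the same 3 libraries.

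In this pathway, TGF-β and BMP ligands bind paired serine/threonine kinase receptors, which phosphorylate receptor SMADs: SMAD2 and SMAD3 on the TGF-β side, SMAD1, SMAD5 and SMAD9 on the BMP side. These join SMAD4 and act on target genes. Several targets feed back on the pathway: SMAD6 and SMAD7 block receptor signaling, BAMBI is a decoy receptor, and SnoN, the product of Skil, is a corepressor of SMAD targets. The ID genes are well known BMP targets. Their products lack a DNA-binding basic region and hold E proteins, transcription factors of the helix-loop-helix class, away from DNA.

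Total counts per library ran from 28467089 to 37873433 at 0 hours, from 30920755 to 36177889 at 12 hours and from 30299344 to 39239760 at 24 hours. Although the labels describe epithelial-like cells, the epithelial markers Epcam, Cdh1 and Cldn7 reached at most 3, 4 and 3 counts in any library. Krt8 lay between 17.3 and 26.2 CPM (counts per 1e6 of the scaled library size). Its means were 18.2, 22.3 and 23.1 CPM at 0, 12 and 24 hours. All 6 epithelial markers, including those not named here, summed to 20.4 to 24.9 CPM at 0 hours. Their sum was 21.9 to 26.7 CPM at 12 hours and 24 to 30.3 CPM at 24 hours, with overlap between the times. The prostate luminal genes Foxa1 (274 to 297 CPM) and Hoxb13 (81.3 to 106 CPM) were detected in every library. Of 6 stromal markers, Vim (216 to 254 CPM) and Pdgfra (14.8 to 17.7 CPM) were present and Col1a1, Col1a2, Col3a1 and Pdgfrb reached at most 12, 1, 7 and 2 counts. These 6 markers summed to 260 to 270 CPM at 0 hours, 239 to 253 at 12 hours and 231 to 250 at 24 hours. Most of the sum was Vim, with means of 247, 230 and 226 CPM. The stromal sum was lower at both later times, and the part of either sum in the results below was not tested. Endothelial (Pecam1, Cdh5, Kdr) and leukocyte markers (Ptprc, Cd3e, Lyz2, Cd68) summed to at most 0.299 and 1.05 CPM. In bulk RNA, a change in the number of expressing cells and a change in RNA per cell cannot be told apart.

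The 3 ID genes encode related proteins, so the stretch that codes for the helix-loop-helix region was compared to show how far their reads could be confused. It was picked as the in-frame coding window of its length with the most bases shared by all 3 genes. The shares below thus describe the most alike stretch, read from the mouse genome GRCm38, in exon 1 of each gene. Capitals mark bases that are the same in all 3 genes.
Id1, chr2:152736515-152736637, + strand: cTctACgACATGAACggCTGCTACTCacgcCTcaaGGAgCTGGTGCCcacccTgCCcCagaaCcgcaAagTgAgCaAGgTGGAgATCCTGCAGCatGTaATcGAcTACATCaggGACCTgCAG
Id2, chr12:25095783-25095905, - strand: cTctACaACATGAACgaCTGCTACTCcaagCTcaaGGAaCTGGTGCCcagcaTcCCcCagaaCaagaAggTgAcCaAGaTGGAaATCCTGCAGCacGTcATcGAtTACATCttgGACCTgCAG
Id3, chr4:136143999-136144121, + strand: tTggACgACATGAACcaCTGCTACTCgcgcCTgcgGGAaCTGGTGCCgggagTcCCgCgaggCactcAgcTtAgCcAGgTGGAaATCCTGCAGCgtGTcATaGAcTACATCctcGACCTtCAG
Of the 123 bases, 78 (63.4%) were shared by all 3. Id1 and Id2 were 82.1% identical here, Id1 and Id3 69.9%, and Id2 and Id3 70.7%. Over the whole transcripts, the longest run shared by a pair was 11, 12 and 15 bases in the same order, against a read length of 150 bases. No exon of the 8 genes overlapped an exon of another annotated gene, and shared runs of 50 bases with other genes covered 0.329% of the Id2 and 0.476% of the Tgfb1 positions and none in the others.

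Tgfb1, on chromosome 7 (GRCm38, 25687002 to 25705077, + strand), encodes the ligand TGF-β1. Its level was 37.3, 37.96 and 33.1 CPM in the 0 hour libraries, 35.5, 38.1 and 34.9 CPM at 12 hours and 40.2, 38.6 and 41.04 CPM at 24 hours. All 24 hour libraries lay above all libraries of both other times, which overlapped. The log2 fold change was 0.0032 (95% interval -0.12 to 0.13) at 12 hours and 0.15 (0.024 to 0.27, edgeR adjusted p = 0.0935) at 24 hours, so neither passed the test.

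Smad3 (chromosome 9, 63646767 to 63757994, - strand), the receptor SMAD of the TGF-β branch, stood at 128.6 ± 3.24 CPM at 0 hours, 128.6 ± 6.05 CPM at 12 hours and 127 ± 0.262 CPM at 24 hours (SD, n = 3). The groups overlapped throughout. The interval of its log2 fold change ran from -0.084 to 0.084 at 12 hours and from -0.10 to 0.066 at 24 hours, which limits any change to well within the 1.5-fold threshold (0.585 on the log2 scale).

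Smad7 (chromosome 18, 75367529 to 75395935, + strand), an inhibitory SMAD induced by both branches, was at 15.8, 15.7 and 13.3 CPM at 0 hours, 17.4, 17.7 and 20.0 CPM at 12 hours and 17.9, 17.3 and 18.4 CPM at 24 hours. Every later library lay above every 0 hour library, while the 12 and 24 hour libraries overlapped. Smad7 rose by 0.30 on the log2 scale at 12 hours (SE 0.080, edgeR adjusted p = 0.0108) and by 0.27 at 24 hours (SE 0.080, adjusted p = 0.0291). The rise rested in part on the lowest library, 0 hour replicate 3: without it the log2 fold change was 0.23 at 12 hours (edgeR adjusted p = 0.0602) and 0.19 at 24 hours, and neither passed. At 24 hours Smad7 also did not pass without 24 hour replicate 1 (0.27) or 24 hour replicate 3 (0.25).

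Smad6 (chromosome 9, 63953076 to 64022059, - strand), the inhibitory SMAD more closely tied to BMP signaling, was at 22.3, 21.0 and 23.7 CPM at 0 hours, 23.5, 22.8 and 21.2 CPM at 12 hours and 24.7, 19.5 and 23.0 CPM at 24 hours. The 3 groups overlapped. Its log2 fold change was 0.012 (interval -0.16 to 0.18) and 0.0030 (interval -0.17 to 0.17) at 12 and 24 hours. Smad7 counts came to 67.1% ± 9.88 of Smad6 counts at 0 hours, 82.1% ± 10.9 at 12 hours and 80.6% ± 7.95 at 24 hours (SD, n = 3), with overlap between the groups, so a difference in change between the inhibitory SMADs was within the spread between libraries. Set against Smad3, Smad7 counts went from 11.6% ± 0.85 to 14.3% ± 0.551 and 14.1% ± 0.451, and here the 0 hour libraries lay below all others.

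Skil (chromosome 3, 31095058 to 31122577, + strand) was at 82.7, 89.3 and 82.5 CPM at 0 hours, 86.0, 83.5 and 97.4 CPM at 12 hours and 80.9, 81.9 and 79.4 CPM at 24 hours. The 24 hour libraries lay below all others, by a small margin. The log2 fold changes were 0.067 and -0.072 against 0 hours, and -0.14 from 12 to 24 hours (unadjusted p = 0.0175, edgeR adjusted p = 0.144).

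Id1 (chromosome 2, 152736251 to 152737410, + strand) changed most of the set. Its level was 12.6, 12.7 and 12.2 CPM at 0 hours, 18.5, 18.6 and 16.7 CPM at 12 hours and 18.6, 20.5 and 19.6 CPM at 24 hours. Every later library was higher than every 0 hour library, and each 24 hour library lay above the highest 12 hour library, in 1 case by a small margin. Id1 rose 1.44-fold at 12 hours (0.52 on the log2 scale with SE 0.071, adjusted p = 4.95e-05 by edgeR) and 1.56-fold at 24 hours (0.65, SE 0.070, adjusted p = 7.36e-06). The interval at 24 hours, 0.50 to 0.79, included the 1.5-fold threshold, and a test against that threshold itself (glmTreat in edgeR) gave an adjusted p of 1 and 0.0738 before adjustment. Between 12 and 24 hours the change of 0.12 (interval -0.019 to 0.27) did not pass.

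Id2 (chromosome 12, 25093799 to 25097140, - strand) was at 177.2, 155.8 and 154.8 CPM at 0 hours, 175.1, 173.9 and 171.3 CPM at 12 hours and 182.5, 183.4 and 175.6 CPM at 24 hours. Replicate 1 at 0 hours lay above all 12 hour libraries and 1 of the 24 hour libraries, and the other 0 hour libraries lay below all later ones. The log2 fold change was 0.094 at 12 hours (edgeR adjusted p = 0.152) and 0.15 at 24 hours (SE 0.046, adjusted p = 0.0311). Leaving out 1 library at a time gave 0.12 to 0.22 at 24 hours, and Id2 did not pass in 5 of 9 such fits. These were the fits without 0 hour replicates 2 or 3 or any of the 24 hour libraries. Without 0 hour replicate 1, Id2 also passed at 12 hours (0.16, edgeR adjusted p = 0.00714). Id1 counts came to 7.72% ± 0.528 of Id2 counts at 0 hours, 10.4% ± 0.522 at 12 hours and 10.8% ± 0.551 at 24 hours (SD, n = 3), and the 0 hour libraries, at 7.13% to 8.14%, did not overlap the rest.

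Id3 (chromosome 4, 136143497 to 136145755, + strand) was barely detected, with 7, 13 and 8 counts at 0 hours, 10, 6 and 5 counts at 12 hours and 12, 7 and 9 counts at 24 hours. The groups overlapped. In a fit without the filter the log2 fold change at 12 hours was -0.36 with an interval from -1.62 to 0.90 (edgeR adjusted p = 0.780), so a change of 1.5-fold in either direction was not detectable at this depth. Id4, the other mammalian ID gene, reached at most 6 counts.

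**Figure D1:**
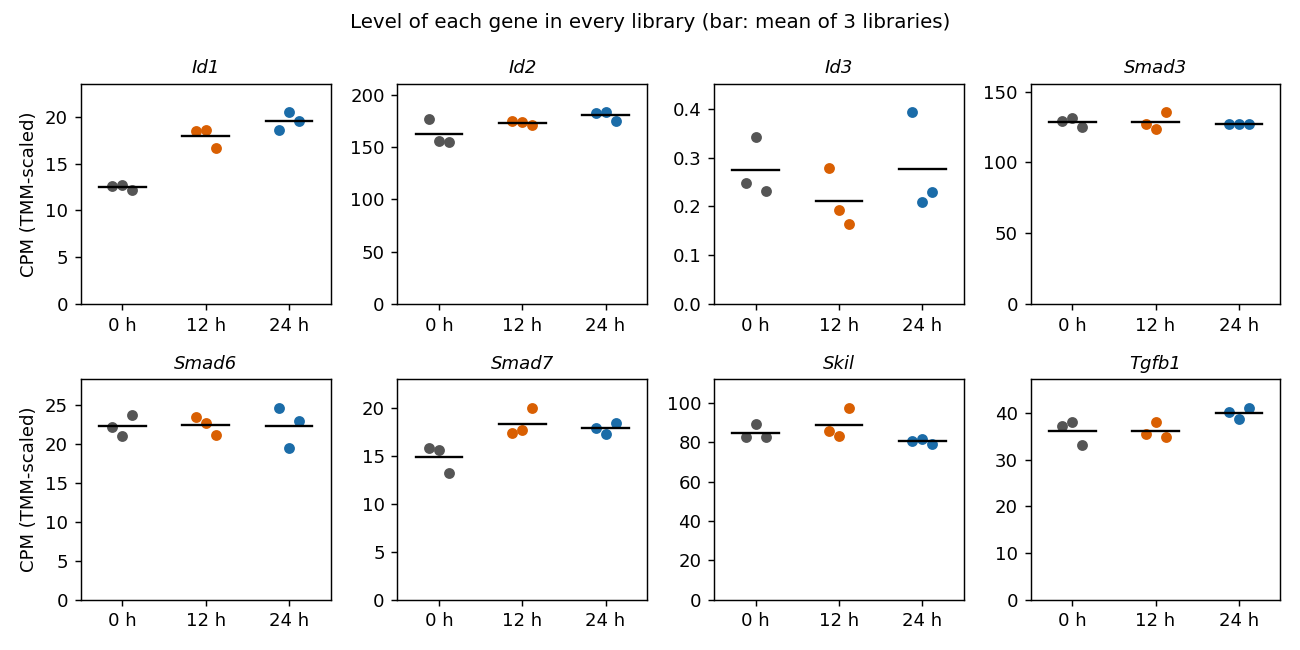
Level in CPM (y axis, from 0, scaled by trimmed mean of M-values) of the 8 measured genes in each of the 9 libraries (points) at 0, 12 and 24 hours, with the mean of 3 libraries as a bar. Id1 and Smad7 lie above all 0 hour libraries at both later times, and Smad3 and Smad6 overlap throughout.

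At 12 hours, 2 of the 7 tested genes passed the test, Id1 and Smad7, both higher; 25.5% of all genes tested passed in that comparison, 13.6% higher and 11.9% lower. None of the 7 also reached 1.5-fold by edgeR or by DESeq2, against 2.29% of all genes, and 2 were at an unadjusted p under 0.05. At 24 hours, 3 of 7 passed (Id1, Id2 and Smad7), all higher, against 17.4% of all genes, 9.67% higher and 7.76% lower, and 1 of 7 was called at 1.5-fold, against 2.27%. With 7 genes, nothing further is read from these counts. The median log2 fold change of the 7 was 0.067 at 12 hours and 0.15 at 24 hours, beside -0.0028 and -0.0065 over all genes. These medians are a description only, as the genes were chosen with earlier results of these data known.

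From 12 to 24 hours none of the 7 passed by edgeR or DESeq2, 2 were at an unadjusted p under 0.05 (Tgfb1 higher, Skil lower), and 5.03% of all genes passed. None was called at 1.5-fold by edgeR or DESeq2, against 0.290% of all genes. Groups without overlap were found for 2 of 7 genes at 12 hours, 4 of 7 at 24 hours and 4 of 7 between 12 and 24 hours, where 38.4%, 35.5% and 25.0% of all genes had none. In a single test for any difference among the 3 times, Id1 (edgeR adjusted p = 1.18e-05) and Smad7 (adjusted p = 0.0175) passed, Id2 did not (adjusted p = 0.0539), and 27.4% of all genes passed.

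**Figure D2:**
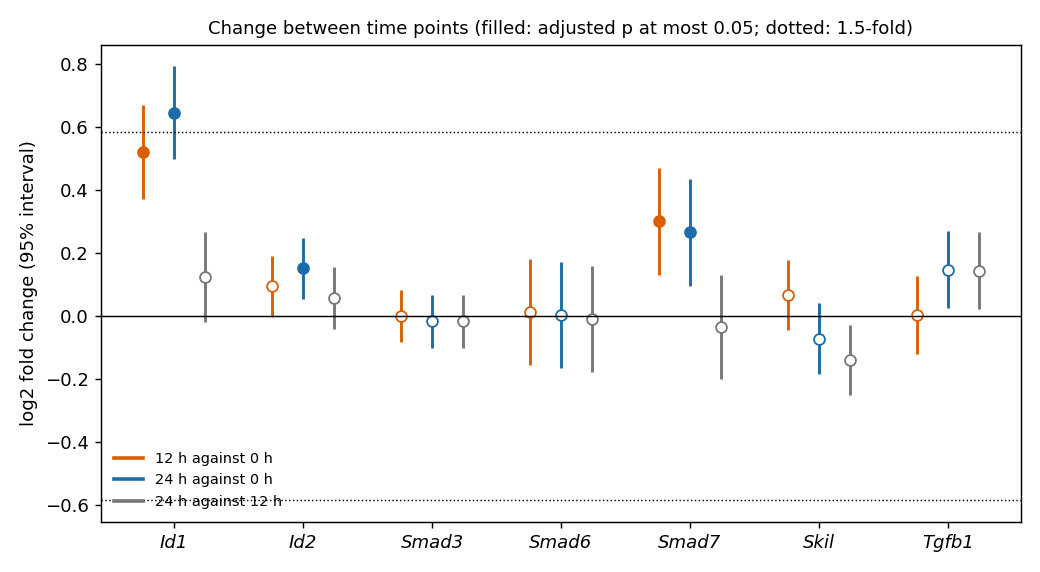
Log2 fold change with its 95% interval (y axis) of the 7 tested genes in the 3 comparisons, filled where the edgeR adjusted p was at most 0.05; dotted lines mark 1.5-fold. Id1 is the only gene whose estimate crosses a dotted line, at 0.65 for 24 hours against 0 hours.

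Leaving out each library in turn separated the 3 genes that passed. Id1 passed in 9 of 9 fits at both times, with log2 fold changes of 0.50 to 0.58 at 12 hours and 0.62 to 0.68 at 24 hours, and it stayed past 1.5-fold in all 9 at 24 hours. Smad7 passed in 8 of 9 fits at 12 hours and 6 of 9 at 24 hours, and Id2 in 1 and 4 of 9.

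**Figure D3:**
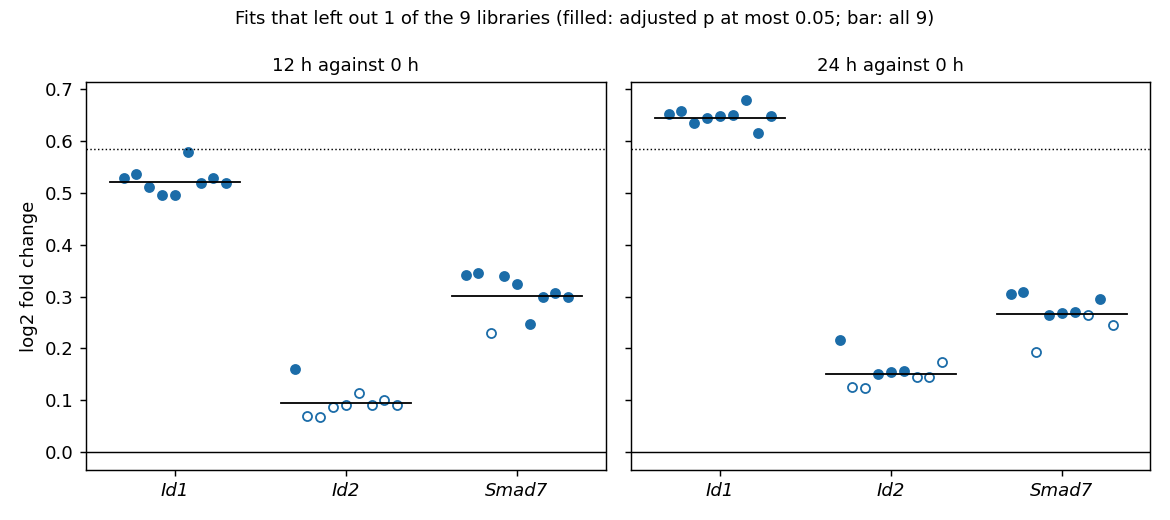
Log2 fold change (y axis) of Id1, Id2 and Smad7 against 0 hours in the 9 fits that each left out 1 library (points, filled where the edgeR adjusted p was at most 0.05), with the value from all 9 libraries as a bar and 1.5-fold dotted. All Id1 points are filled, and at 24 hours they lie between 0.62 and 0.68.

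Levels per kilobase of annotated exon put genes of different length on a rough common scale. The length was the union of all annotated exons, and which transcripts the cells expressed was not determined. On this scale Id2 was the highest at every time. It had 66.7 ± 5.20 CPM per kb at 0 hours and 74.0 ± 1.76 at 24 hours (SD, n = 3). Smad3 followed with 23.2 CPM per kb at 0 hours, 2.87-fold below Id2. Id1 came next, at 10.8 CPM per kb at 0 hours and 16.9 at 24 hours, so the step from Smad3 down to Id1 went from 2.15-fold to 1.36-fold. Skil was 4th, from 8.33 to 9.18 CPM per kb over the 3 times. At 24 hours it was 1.05-fold above Tgfb1, a small step that depends on the lengths used. Tgfb1 and Smad6 overlapped at every time and could not be ordered. Smad7 was at 3.30 CPM per kb at 0 hours and 3.96 at 24 hours, and Id3, the lowest, at 0.153 and 0.155, which is 21.5-fold and 25.6-fold below Smad7. The order of the means was the same at each time.

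**Figure D4:**
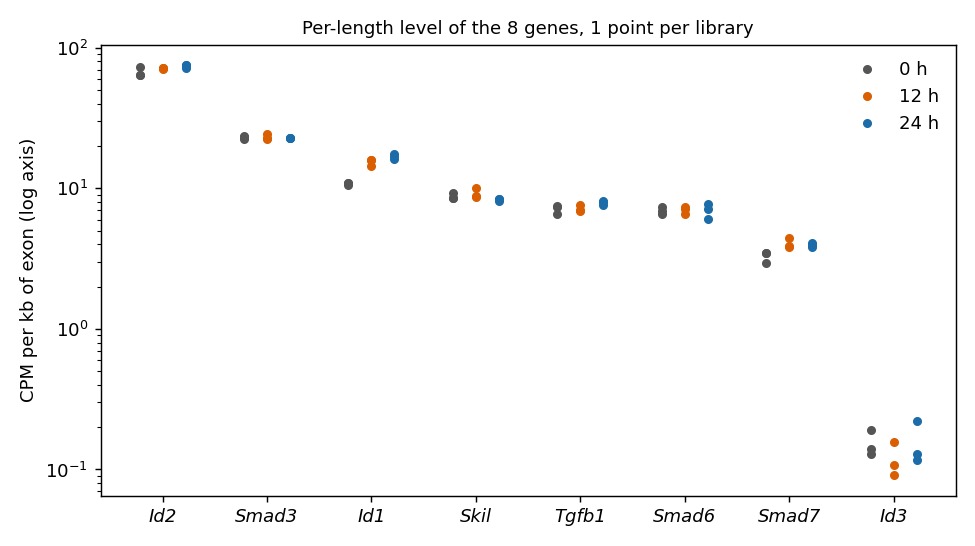
CPM per kb of exon (log axis) of the 8 genes, ordered by their mean at 0 hours, with 1 point per library colored by time. Id2 lies highest and Id3 lowest at every time, and Tgfb1 and Smad6 overlap.

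The genes whose course was most like that of Id1, by the root mean square difference of mean-centered log2 CPM over the 9 libraries among 8409 genes of at least 10 CPM, were Spdl1 (difference 0.0554) and Ier5l (0.0735), where Id1 itself deviated from its mean by 0.283. Spdl1 went from a mean of 13.9 to 20.7 and 22.6 CPM and Ier5l from 18.3 to 24.7 and 26.7 CPM. For Smad7, which deviated by 0.16, they were Ing2 (0.0492; 18.8, 22.5 and 21.0 CPM) and Prrg4 (0.0555; 26.4, 32.1 and 29.8 CPM). Likeness here is a description over libraries that share 1 experiment.

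Taken more widely, 8 lists of pathway genes held 151 symbols, of which 124 were in the table and 83 were tested. The lists include the genes followed above, so their counts are not separate from the results for the set. At 12 hours 15 passed higher and 9 lower (28.9% of the 83, beside 25.5% of all genes), and at 24 hours 16 higher and 5 lower (25.3%, beside 17.4%). Their median log2 fold changes were 0.00047 and 0.017.

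Among 9 tested ligands, 1 passed higher and 3 lower at 12 hours, and 1 higher and 2 lower at 24 hours. Shares over all genes were 25.5% and 17.4%. The lists are small, and nothing further is read from their counts here or below. Inhba, which encodes the activin A subunit, rose from 3.43 ± 0.150 CPM to 5.57 ± 1.16 at 12 hours (log2 fold change 0.69, SE 0.14) and 5.11 ± 0.191 at 24 hours (0.57); without 12 hour replicate 3 the 12 hour change was 0.52, under the 1.5-fold threshold. Tgfb3 fell from 95.2 CPM to 76.7 and 70.0 CPM (log2 fold changes -0.31 and -0.44), and Tgfb2 from 26.3 CPM to 21.4 and 20.7 CPM (-0.30 and -0.34). For Tgfb3, 12.4% of exon bases lie opposite an exon of another gene, and whether reads were counted by strand is not given in the sources used here.

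Of 14 tested receptors and co-receptors, 2 passed lower at 12 hours and 1 at 24 hours (11.9% and 7.76% of all genes). None passed higher by edgeR in either comparison (13.6% and 9.67% of all genes), with 0 and 1 higher at an unadjusted p under 0.05. DESeq2 gave the same totals of 2 and 1. The total at 12 hours was 4 without 12 hour replicate 3, and at 24 hours it was 2 without 0 hour replicate 3. Bmpr1b, a type I BMP receptor, fell from 51.7 ± 2.84 CPM to 36.4 ± 1.33 (log2 fold change -0.51, SE 0.051) and 38.1 ± 0.851 (-0.44). Tgfbr3, the co-receptor betaglycan, fell by 0.29 on the log2 scale at 12 hours and differed by -0.11 at 24 hours, which did not pass.

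Of the 8 SMAD genes 7 were tested, and 2 passed higher (Smad2, Smad7) and 1 lower (Smad9) at both times. Shares over all genes were 25.5% at 12 hours and 17.4% at 24 hours. The total of 3 went to 1 at 12 and 24 hours without 0 hour replicate 3, and at 24 hours without 24 hour replicate 1 or 3. Smad9, a BMP receptor SMAD, fell from 21.6 ± 1.9 CPM to 14.4 ± 1.2 at 12 hours (log2 fold change -0.58, SE 0.080) and 13.9 ± 0.530 at 24 hours (-0.64). The 24 hour change was past 1.5-fold, but not without 0 hour replicate 3 (-0.56), and the 12 hour change lay at the threshold, past it in 4 of 9 fits that left out 1 library and 4 of 8 other settings (down to -0.59 with total counts). Smad2 changed by 0.13 and 0.15 on the log2 scale and passed at both times, but in only 3 and 4 of 9 fits that left out 1 library, and at 12 hours in only 2 of 8 other settings (adjusted p = 0.0584 with DESeq2). Smad5 (74.2 CPM at 0 hours) and Smad4 (210.9 CPM) did not pass at either time. Smad1 reached at most 1 count in a library, under the 3 counts that a count of 0 allows.

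Of 18 tested intracellular inhibitors and corepressors, 3 passed higher and 1 lower at 12 hours and 5 higher at 24 hours. Shares over all genes were 25.5% at 12 hours and 17.4% at 24 hours. The 24 hour count was 3 without 0 hour replicate 1 or 3 or 24 hour replicate 2. Tob1, an antiproliferative protein that binds SMADs, rose from 90.3 CPM to 113.6 and 106 CPM (log2 fold changes 0.33 and 0.23), the 24 hour change passing in 5 of 9 fits that left out 1 library. The 24 hour change did not pass without 0 hour replicate 1 or 3 or 24 hour replicate 1 or 2. Fkbp1a, whose product binds type I receptors, rose from 1253 CPM to 1426 and 1394 CPM (0.19 and 0.15). The ubiquitin ligase genes Smurf1 (0.22) and Wwp1 (0.19) passed at 24 hours only, and their values at 12 hours were 0.11 and 0.034. Between 12 and 24 hours Wwp1 changed by 0.16 and passed with all libraries, but in only 3 of 9 fits that left out 1, not without 0 hour replicate 2, 12 hour replicate 1 or 3 or any 24 hour library. The change of Smurf1, 0.11, did not pass.

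Of 11 tested extracellular antagonists and latent-complex genes, 1 passed higher and 1 lower at 12 hours, beside 25.5% of all genes. The higher one was Fstl3 (0.47) and the lower one Ltbp1 (-0.13). None passed at 24 hours by edgeR (17.4% of all genes) or DESeq2, and 0 had an unadjusted p under 0.05. Fstl3, an activin-binding follistatin-like gene, went from 23.7 to 32.8 and 24.8 CPM, and 47.3% of its exon bases lie opposite an exon of Prss57. Ltbp1, a binding protein of latent TGF-β, went from 372 to 339 and 390 CPM. The antagonist gene Nog reached at most 2 counts.

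Of 5 tested E-protein and further helix-loop-helix genes, the transcription factor genes Bhlhe40 (0.32) and Mxi1 (0.17) passed higher at 12 hours (13.6% of all genes). None passed at 24 hours by edgeR (17.4% of all genes) or DESeq2, with 1 at an unadjusted p under 0.05. Without 0 hour replicate 1, 1 of the 5 passed at 24 hours. Between 12 and 24 hours Bhlhe40 fell by 0.33 on the log2 scale and passed in 9 of 9 fits that left out 1 library. Mxi1 fell by 0.15 and passed in 4 of 9, not without 12 hour replicate 1 or 2 or any 24 hour library. The E-protein genes Tcf3 (0.033 and 0.089), Tcf4 (-0.094 and -0.045) and Tcf12 (0.00047 and 0.00056) did not pass at 12 or 24 hours.

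Of 18 tested genes commonly raised by TGF-β, a list that includes Smad7 and Skil, 7 passed higher at 12 hours and 7 at 24 hours. Among all genes, 13.6% and 9.67% passed higher. None of the 18 passed lower by edgeR, against 11.9% and 7.76% of all genes. At an unadjusted p under 0.05, 1 and 0 were lower. The median log2 fold change of the 18 was 0.21 and 0.19, beside -0.0028 and -0.0065 over all genes. The list was chosen with earlier results of these data known, so these values are a description only. Cdkn1a, which encodes the cell cycle inhibitor p21, rose from 47.4 ± 6.52 CPM to 85.1 ± 12.5 (0.84, SE 0.093) and stood at 56.8 ± 2.20 at 24 hours (0.26, edgeR adjusted p = 0.0653), where it passed in 3 of 9 fits that left out 1 library, without 0 hour replicate 2 or 12 hour replicate 2 or 3, and in 3 of 8 other settings. Junb rose by 0.41 and 0.18, the latter not passing without 0 hour replicate 3 or 24 hour replicate 1. Of exon bases, 7.68% in Cdkn1a and 7.52% in Junb lie opposite an exon of another gene. Some other named genes, such as Gata3 (3.9%), held smaller shares. Cdkn1a and Junb both fell between 12 and 24 hours, by 0.58 and 0.23 on the log2 scale, though Junb did not pass without 24 hour replicate 3. The count at 24 hours went from 7 to 3 without 0 hour replicate 3 or 24 hour replicate 1, and to 4 without 24 hour replicate 3.

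The list of genes commonly raised by BMP includes Id1, Id2, Smad6 and Smad7, and 10 of its genes were tested. At 12 hours 3 of the 10 passed higher and 2 lower, beside 25.5% of all genes. At 24 hours 4 passed higher and 2 lower, beside 17.4%. The higher ones were Id1, Smad7 and Tob1 at 12 hours, joined by Id2 at 24 hours, and the lower ones were Smad9 and Gata3, a transcription factor gene that went from 212.6 to 180.6 and 177.6 CPM (-0.23 and -0.26). The total at 24 hours was 3 without 0 hour replicate 3 or 24 hour replicate 1.

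**Figure D5:**
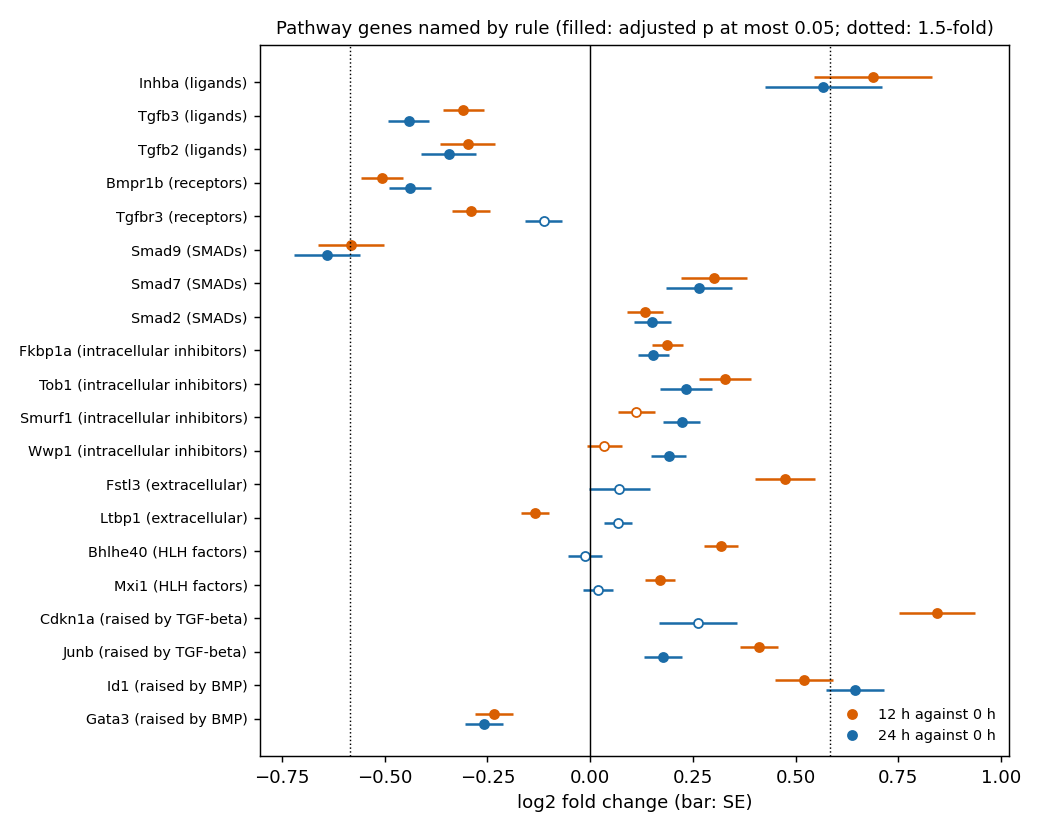
Log2 fold change with its SE (x axis) of the pathway genes named by rule, with their list in brackets, at 12 and 24 hours against 0 hours; filled points passed at an edgeR adjusted p of at most 0.05 and dotted lines mark 1.5-fold. Cdkn1a reaches 0.84 at 12 hours and 0.26 at 24 hours, and Smad9 lies lowest at -0.64.

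Promoter sequence was given here for Id2, Id3, Smad3, Smad6 and Tgfb1. The windows of Id2, the highest of the ID genes, and Id3, the lowest, are shown to set their letters side by side. Each is the 250 bases before the RefSeq start on GRCm38.p6, and both lie within the gene span given above, which includes transcripts that begin further upstream. Capitals mark a GC-rich SMAD element (GGCGCC) in Id2 and the SMAD core (CAGAC, on either strand) in Id3.
Id2, chr12:25096093-25096342, - strand: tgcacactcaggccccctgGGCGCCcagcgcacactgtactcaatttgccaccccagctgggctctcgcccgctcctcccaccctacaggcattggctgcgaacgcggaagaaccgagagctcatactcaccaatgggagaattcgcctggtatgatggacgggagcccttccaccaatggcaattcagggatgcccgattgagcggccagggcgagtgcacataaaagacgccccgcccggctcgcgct
Id3, chr4:136143572-136143821, + strand: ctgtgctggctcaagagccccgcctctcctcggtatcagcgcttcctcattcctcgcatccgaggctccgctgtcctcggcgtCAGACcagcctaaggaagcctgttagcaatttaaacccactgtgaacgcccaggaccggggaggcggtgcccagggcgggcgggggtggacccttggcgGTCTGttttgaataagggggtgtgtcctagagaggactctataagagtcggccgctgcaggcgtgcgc
The Id2 window held 1 GGCGCC and 1 E-box (CANNTG) and no CAGAC, and the Id3 window held 2 CAGAC and neither of the others. Of all 32851 RefSeq windows of the same length, 9.59% held GGCGCC, 42.2% CAGAC and 66.2% an E-box on either strand, and 0.167% held the palindrome GTCTAGAC, which contains none of the other 3. The Smad3, Smad6 and Tgfb1 windows held none of these 4 motifs. A match in letters is a description and shows no binding.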

How the data were processed

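The authors trimmed adapters with Cutadapt, aligned paired-end reads of 150 bp to GRCm38.p6 with STAR and used featureCounts to assign reads to genes. The deposited values are raw counts per gene, not normalized, in 1 table of 15552 genes over 9 libraries, with total counts from 28467089 to 39239760. How multimapping reads were counted, and whether strand was used, is not given in the sources used here.

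Groups followed the time in the labels. Counts were filtered (filterByExpr, leaving 11373 genes), scaled by trimmed mean of M-values and tested with quasi-likelihood F-tests in edgeR 4.0.16 (R 4.3.3) on all 9 libraries, with Benjamini-Hochberg adjustment over all genes tested. A gene passed at an adjusted p of at most 0.05 and was called with a fold change of at least 1.5 as well. CPM are counts per 1e6 of the scaled library size, and CPM per kb divides them by the union of exons in GENCODE vM21, which also gave coordinates. Replicates were compared first: chi-square per degree of freedom between libraries of a group was 3.75 to 10.1, so no pair was a repeat of the same library.

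Alternatives were DESeq2 1.42.0, its size factors, total counts, no filter, pairwise fits, glmTreat, a GC offset, a replicate block and leaving out each library. Scripts were tested on simulated counts. The genes, pathway lists and tests were chosen with earlier results of these data known. Every gene of the set was named. From each list, called genes and up to 4 others with the smallest adjusted p for any difference were named, and for Id1 and Smad7 the 2 genes nearest in root mean square difference (prior count 2, at least 10 CPM). Some genes of the marker and pathway lists are counted but not reported here by name. Intervals cover 95%. Because wells of a single line were replicated, p-values measure the spread between wells.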

Additional observations from a re-analysis of the deposited data

How the results depend on the processing

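Id1, Id2 and Smad7 kept their direction and their side of the adjusted p threshold at 12 and 24 hours under DESeq2, its size factors, total counts, no filter, fits of only 2 time points, a GC offset, a replicate block and the block with a GC offset. Over these, Id1 lay between 0.51 and 0.53 (log2) at 12 hours and at 0.65 at 24 hours, and Smad7 between 0.29 and 0.32 and between 0.26 and 0.27. In the test for any difference among the 3 times, Id2 passed in 5 of 7 of these settings, with adjusted p from 0.00957 to 0.0823. Requiring a fold above 1.5 in the test itself (glmTreat) left 4 called genes at 12 hours in place of 261, 6 at 24 hours in place of 258, and 0 between 12 and 24 hours in place of 33; of the set, 0 were then called at 24 hours in place of 1 (Id1). This test also demands that the interval clear the threshold. Between 12 and 24 hours, no filter on low counts gave 950 genes past the adjusted p in place of 572 and 53 called in place of 33.

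Leaving out 1 library at a time gave 1 to 3 genes of the set past the adjusted p at 12 hours, at 24 hours and in the test for any difference. The lowest value came without 0 hour replicate 3 each time, and at 24 hours also without 24 hour replicate 1 or 3. Between 12 and 24 hours it gave 214 to 879 genes past the adjusted p, lowest without 12 hour replicate 1 and highest without 12 hour replicate 3, and 16 to 36 called genes.

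Changes near 0 turned sign, none of them past the threshold. Smad3 at 12 hours became 0.000648 with DESeq2, 0.000682 with its size factors, 0.0017 without the filter, 0.0107 with a GC offset and 0.0103 with the block and GC offset. Total counts gave -0.00749 for Tgfb1 at 12 hours and 0.0048 for Smad6 between 12 and 24 hours. Smad6 at 24 hours became -0.0105 with a GC offset. Leaving out 1 library, Smad3 ranged from -0.0273 to 0.0267 at 12 hours, -0.0319 to 0.00183 at 24 hours and -0.0415 to 0.0149 between them. Smad6 ranged from -0.0268 to 0.0665, -0.0673 to 0.0966 and -0.0769 to 0.0775. Tgfb1 ranged from -0.0496 to 0.0488 at 12 hours, Wwp1 from -0.00367 to 0.0645 at 12 hours, Bhlhe40 from -0.0547 to 0.0188 and Fstl3 from -0.0275 to 0.135 at 24 hours, and Smad7 from -0.0744 to 0.0237 between 12 and 24 hours. The causes were not tested.

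Replicate numbers were not shown to pair the libraries: deviations from the group means correlated at -0.0744 to 0.131 for the 9 same-numbered pairs, 1 of them over 0.1, and 4 of 9 libraries correlated best with their own number. With the replicate block, 2 genes of the set passed at 12 hours and 3 at 24 hours, as without it. Smad6 at 24 hours became -0.0018 with the block and -0.0149 with the block and GC offset, and Bhlhe40 0.000954 with both. The depth left Id3, at 5 to 13 counts, without a usable interval.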
